A study of Mus musculus with 10 samples.

Results

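Pex11a and Acaa2 were followed in the RNA of extracellular vesicles from mouse brain after chronic ethanol vapor. Each gene was read by 1 probe of an Agilent microarray, the probe A_51_P456957 with accession NM_011068 for Pex11a and the probe A_51_P125260 with accession NM_177470 for Acaa2. They are 2 of the 46 genes whose probes could be named through their accession, out of 60823 probes on the array. The pair was chosen by function and with the intensities of both groups already known, so the ethanol difference below is a description and not a test. Whether each probe reports its named transcript was not tested.

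The animals were adult female mice of the inbred strain C57BL/6J. The ethanol group breathed ethanol vapor for 8 h a day on 5 days of the week over 4 weeks, and the control group breathed room air on the same schedule. Whole brains were taken straight after the last exposure. Vesicles were isolated by differential ultracentrifugation, and their RNA (SeraMir kit, about 3 µg for each sample) was amplified into Cy3-labelled material for the arrays. Each group had 5 arrays. The labels do not say that every sample came from its own animal, so the spread between arrays may be partly technical. More vesicles that carry a transcript and more copies per vesicle cannot be told apart in such RNA.

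The file headers divide the arrays into 2 sets that share the identifier of a scan image, called slides here. Of the room air arrays, 3 were on slide 1 and 2 on slide 2. Of the ethanol arrays, 1 was on slide 1 and 4 were on slide 2. The share of non-control spots well above background was 62.1% to 74.5% on slide 1 arrays and 75.9% to 87.9% on slide 2 arrays. No spot was saturated. Of 34 marker genes for brain cells, blood, liver and vesicles, 3 had a named probe. The myelin gene Mbp and the astrocyte lipoprotein gene Apoe were well above background on all 10 arrays, and the GABA receptor gene Gabrg1 on 3 of 10. None of the 5 vesicle markers had a named probe, so the vesicle label was not checked.

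Peroxisomes are small organelles that shorten very long-chain fatty acids and that make and break down hydrogen peroxide. Their catalase can also oxidise ethanol, and it is one of the routes of ethanol oxidation known in the brain. Pex11a encodes a peroxisomal membrane protein that promotes the elongation and division of the organelle, and in liver it is a known target of the fatty acid receptor PPAR alpha. Acaa2 encodes the thiolase that carries out the last step of fatty acid beta-oxidation in mitochondria, the release of acetyl-CoA.

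The 250 bases before the Pex11a start site are shown because the known regulator of the gene, Ppara, also has a probe on the array. They come from RefSeq on build GRCm38.p6, chr7:79743132-79743381 on the minus strand, and capitals mark the only motif match.
Pex11a upstream: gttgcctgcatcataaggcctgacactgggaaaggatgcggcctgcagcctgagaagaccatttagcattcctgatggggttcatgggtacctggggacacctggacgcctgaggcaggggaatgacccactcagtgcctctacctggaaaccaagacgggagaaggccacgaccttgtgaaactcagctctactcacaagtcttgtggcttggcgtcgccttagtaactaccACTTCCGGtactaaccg
Of 6 motifs searched on both strands, CCGGAAGT, a site of ETS family factors, occurred once, on the minus strand relative to the gene. The stretch in capitals begins 17 bases before the start. This motif was added after the sequence was seen, and 2.88% of the 32851 upstream windows of the same length hold it. The nuclear receptor half-site AGGTCA (in 14.0% of windows), the peroxisome proliferator response element (0.033%), the TATA box TATAAA (12.4%), the GC box GGGCGG (32.7%) and CCAAT (33.8%) had no match in this window. The response element is a repeat of the half-site with 1 base between. A match is a description of the letters, and no measurement here was made at this promoter. The arrays were annotated on build mm9, per the file headers, so no probe is placed on these coordinates.

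Pex11a was bright on every array. All 100 of its printed spots were well above background, and its median spot signal was 95.8 to 445 times the local background. Levels are given as log2 intensity minus the 75th percentile of the array. On slide 1 the room air arrays, replicates 1, 2 and 3, had Pex11a levels of 2.94, 3.73 and 2.90, and ethanol replicate 4 had 4.53. On slide 2 the room air arrays, replicates 5 and 9, had Pex11a levels of 4.20 and 4.92, and ethanol replicates 6, 7, 8 and 10 had 5.32, 4.62, 4.92 and 5.50. The lowest 3 arrays were the room air arrays of slide 1, and the highest were ethanol replicates 10 and 6. The groups overlapped, since room air replicate 9 lay above ethanol replicates 4 and 7, and 0.369% of tested probes were higher in ethanol without overlap.

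Room air vesicles had a mean Pex11a level of 3.74 ± 0.86 (SD, n = 5), and ethanol vesicles one of 4.98 ± 0.42 (SD, n = 5). The difference was 1.24 (SE 0.40, 95% interval 0.35 to 2.13), or 2.36-fold, against a median of 0.26 over all 49363 tested probes. Relative to that median it was 0.98, and 3.84% of probes had a difference at least as high. The groups were unevenly divided between the slides, so these unblocked values take in part of the slide difference. A fit with slide as a block gave 0.82 for Pex11a (SE 0.28, 95% interval 0.22 to 1.42), or 1.77-fold, and 0.774% of probes were at least as high. It was 1.34 on slide 1, which had 1 ethanol array, and 0.53 (95% interval -0.13 to 1.18) on slide 2. When each ethanol array was paired with each room air array of its slide, the ethanol array had the higher Pex11a level in 10 of 11 pairs. Pairs formed this way share arrays and are not independent. Neither member was called at an adjusted p of 0.05 in limma, and nor was any probe (0% of 49363), while 2432 probes (4.93%) had an unadjusted p under 0.05. With the block the count was again 0 (0%), and 4248 probes (8.61%) had an unadjusted p under 0.05.

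**Figure D1:**
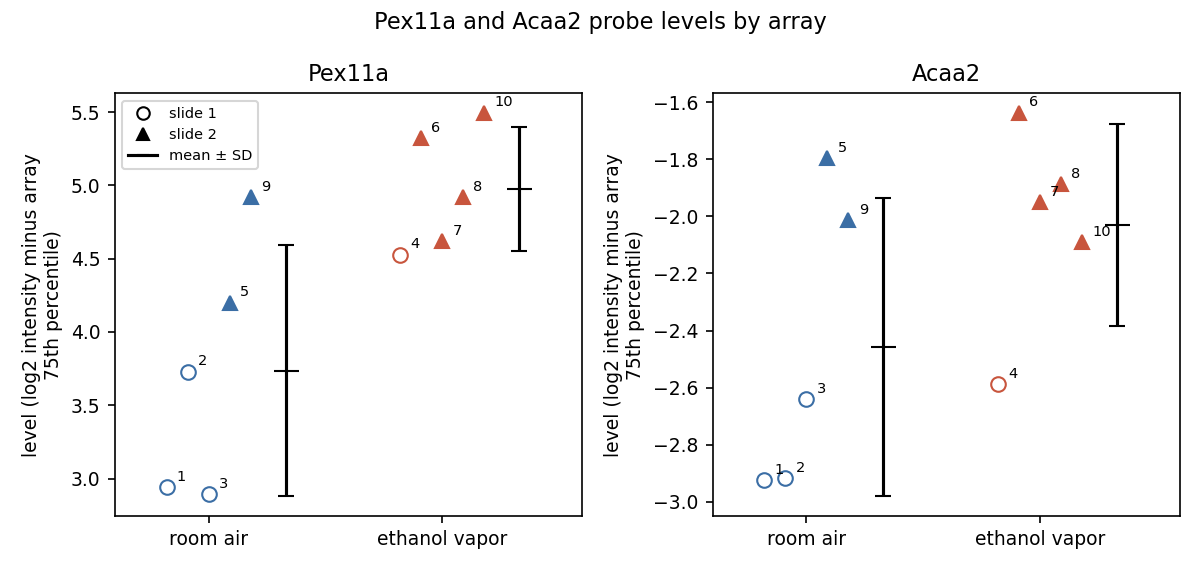
Levels of the Pex11a and Acaa2 probes (log2 intensity minus the 75th percentile of the array) in room air and ethanol vapor arrays, with the replicate number beside each point, the slide shown by the marker, and mean ± SD of 5 arrays. Pex11a ranged from 2.90 to 4.92 in room air and from 4.53 to 5.50 in ethanol arrays, and the Acaa2 points of slide 1 all lie below those of slide 2.

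The size of the Pex11a difference depended on how the arrays were scaled. On the log2 scale the 75th percentile was 8.25 ± 0.31 (SD, n = 5) on room air arrays and 8.03 ± 0.16 (SD, n = 5) on ethanol arrays. Without any scaling the log2 intensity of Pex11a differed by 1.01, by 0.60 in the blocked fit, by 1.18 on slide 1 and by 0.28 on slide 2. The scaled difference ran from 0.81 with median scaling to 1.5 with a percentile taken over the probes detected on every array. In blocked fits the other scalings gave 0.75 to 0.90. Leaving out 1 array gave Pex11a differences of 1.03 to 1.54, all above 0. With the block it was 0.53 without ethanol replicate 4, the only ethanol array of slide 1, and 1.11 without room air replicate 9.

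Acaa2 was much dimmer. Its median spot signal was 3.95 to 5.85 times the local background, and 92 of its 100 spots were well above background, 45 of 50 in room air and 47 of 50 in ethanol arrays. On slide 1 the Acaa2 levels were -2.92, -2.92 and -2.64 in room air replicates 1, 2 and 3, and -2.59 in ethanol replicate 4. On slide 2 they were -1.80 and -2.01 in room air replicates 5 and 9, and -1.64, -1.95, -1.89 and -2.09 in ethanol replicates 6, 7, 8 and 10. The arrays separated by slide, and on slide 2 the room air arrays lay inside the ethanol range.

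Room air vesicles had a mean Acaa2 level of -2.46 ± 0.52 (SD, n = 5), and ethanol vesicles one of -2.03 ± 0.35 (SD, n = 5). The difference of 0.43 (SE 0.29, 95% interval -0.21 to 1.07) was 0.16 above the median of all probes, and 38.0% of probes were at least as high. For Acaa2 too, this unblocked value takes in part of the slide difference. In the blocked fit Acaa2 differed by 0.095 (SE 0.15, 95% interval -0.24 to 0.43), which spans 0.847-fold to 1.35-fold. It was 0.24 on slide 1 and 0.014 on slide 2, and the ethanol array was higher in 7 of 11 pairs of Acaa2 arrays on the same slide. The sign of the Acaa2 difference depended on the scaling, with -0.0016 after median scaling and -0.13 after quantile normalization. Without scaling it was 0.20, and -0.13 with the block.

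**Figure D2:**
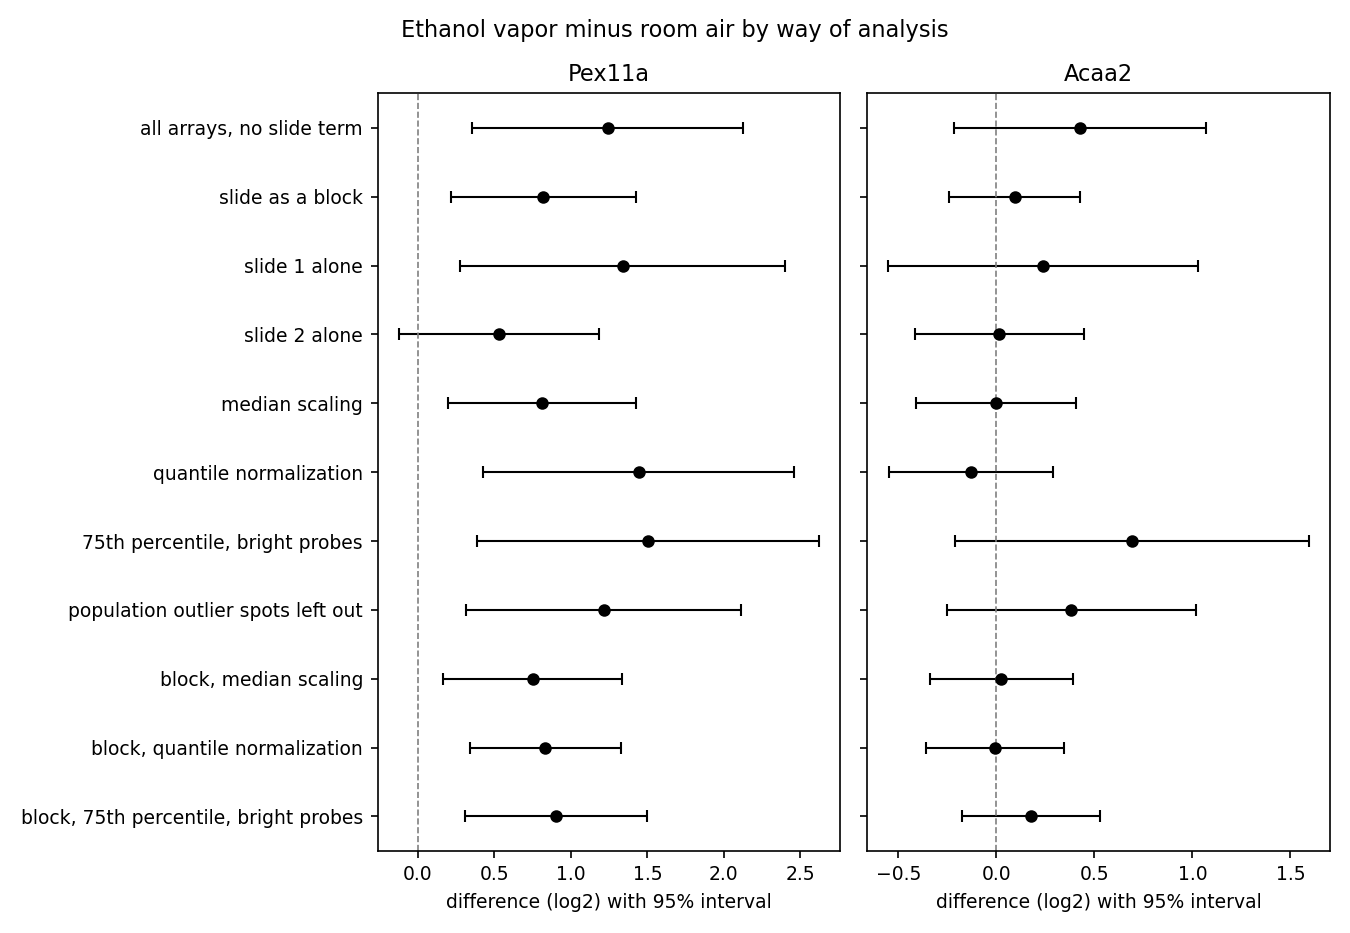
Ethanol vapor minus room air differences (log2, points) with 95% intervals (bars) for Pex11a and Acaa2 as scaled to the 75th percentile, in blocked fits, on each slide alone and with other scalings. Pex11a runs from 0.53 on slide 2 alone to 1.5, and its interval spans 0 on slide 2 alone (-0.13 to 1.18). Acaa2 runs from -0.13 to 0.69 and its intervals all span 0. The genes were chosen with this contrast known, so the intervals are descriptions.

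Any scaling that shifts a whole array cancels when the members are compared within arrays. The Pex11a difference exceeded the Acaa2 difference by 0.81, against an SD of 0.49 between arrays of a group, and by 0.73 in the blocked fit. It did so by 1.1 on slide 1 and by 0.52 on slide 2. The Pex11a level minus the Acaa2 level was 5.54 to 6.93 on room air arrays and 6.57 to 7.59 on ethanol arrays, so the groups overlapped. The pair was chosen with this contrast known, and these values carry no test. Quantile normalization, which does more than shift an array, gave 1.57, and 0.84 in the blocked fit.

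The slides gave a contrast that did not choose the members. With group as a covariate the Pex11a level was 1.05 higher on slide 2 (SE 0.28, 95% interval 0.43 to 1.66, limma adjusted p = 0.00522). The Acaa2 level was 0.83 higher (SE 0.16, 95% interval 0.49 to 1.17, limma adjusted p = 0.000467). Most probes passed this comparison (75.2%, and 56.8% as higher on slide 2), so 2 of 2 members passing is close to that background. Relative to the median slide difference of 0.69 over all probes, Pex11a was 0.36 and Acaa2 0.15 higher. Acaa2 did not overlap between the slides, and 45.9% of probes were likewise higher on slide 2 without overlap, while Pex11a overlapped. In room air the slide 2 arrays were 1.37 above the slide 1 arrays for Pex11a and 0.92 for Acaa2, and in ethanol vapor they were 0.56 and 0.70 above the single slide 1 array.

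The slide calls depended on the scaling. After median scaling, with 63.7% of probes called, the Pex11a slide difference was 0.15 (limma adjusted p = 0.649) and that of Acaa2 was -0.065 (limma adjusted p = 0.758). After quantile normalization, with 55.7% called, Pex11a was 1.52 higher on slide 2 (limma adjusted p = 0.000209), whereas Acaa2 was at -0.31 (limma adjusted p = 0.135). Whether the ethanol difference varied between slides cannot be settled here, because slide 1 held 1 ethanol array. The members were also chosen with the groups known, so the interaction is a description for them. The interaction, slide 2 minus slide 1, was -0.81 for Pex11a (SE 0.55, 95% interval -2.02 to 0.40). For Acaa2 the interaction was -0.22 (SE 0.32, 95% interval -0.94 to 0.49). It passed for 0% of 49262 probes, and 3106 (6.31%) had an unadjusted p under 0.05. Other settings called 6 to 45 probes with median scaling, normexp or the median of the printed spots, and neither member was among them.

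**Figure D3:**
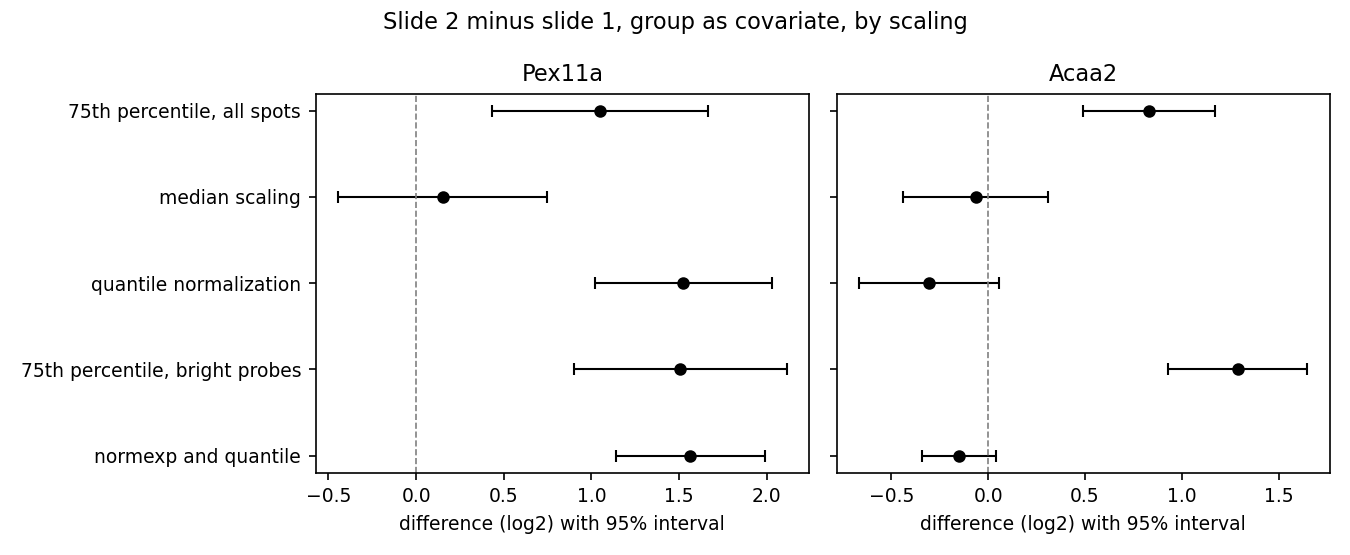
Slide 2 minus slide 1 differences (log2, points) with 95% intervals (bars), group as a covariate, for Pex11a and Acaa2 under 5 scalings. The Pex11a estimate is above 0 under all of them, from 0.15 with median scaling to 1.57. Its interval spans 0 only with median scaling (-0.445 to 0.747). Acaa2 runs from -0.31 with quantile normalization to 1.29. The Acaa2 interval spans 0 with median scaling, quantile normalization and normexp.

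Each probe was printed at 10 positions spread over the array, which shows the error within an array. The Pex11a ethanol difference was 1.05 to 1.52 at the 10 positions, and 0.63 to 1.05 in the blocked fit. That of Acaa2 was 0.18 to 1.08, and -0.030 to 0.67 with the block, above 0 at 7 of 10 positions. Spots marked as non-uniform were kept in these position values. The positions share the same arrays and are not replicates of the groups.

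The spots of Pex11a differed more from each other on ethanol arrays. The SD over its spots was 0.0765, 0.108, 0.0656, 0.104 and 0.0903 in room air replicates 1, 2, 3, 5 and 9. It was 0.185, 0.221, 0.39, 0.192 and 0.14 in ethanol replicates 4, 6, 7, 8 and 10. The groups did not overlap, so the ethanol array was also higher in 11 of 11 pairs on the same slide, which share arrays. The mean Pex11a spot SD was 0.089 ± 0.018 (SD, n = 5) on room air arrays and 0.226 ± 0.097 (SD, n = 5) on ethanol arrays, a difference of 0.137. Adjusted for slide it was 0.125. Without the spots marked as population outliers it was 0.106, with a highest ethanol SD of 0.221 in place of 0.39. The spots are those whose levels were known when the pair was chosen, so the spread is given as a description. Among the 50 probes with an accession, each printed at 10 spots, 2 (4%) had a higher spot SD on every ethanol array than on any room air array. Other probes were not compared in this way. The other was Hyal3, a hyaluronidase family gene, named after its values were seen, as was this comparison.

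Brightness moved with the groups too, and its part in the spread was not tested. Room air replicate 9 and ethanol replicate 8 had the same Pex11a level, 4.92, with spot SDs of 0.0903 and 0.192. They were not equally bright, since their log2 intensities before scaling were 12.98 and 12.71. The median spot SD over the 50 probes ran from 0.147 to 0.194 on room air arrays and from 0.178 to 0.262 on ethanol arrays, and its part in the Pex11a spread was not tested. On ethanol replicate 4, 2 Pex11a spots were marked as non-uniform and left out. For Acaa2 the spot SD was 0.234 ± 0.101 (SD, n = 5) on room air arrays and 0.349 ± 0.143 (SD, n = 5) on ethanol arrays, and the groups overlapped.

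**Figure D4:**
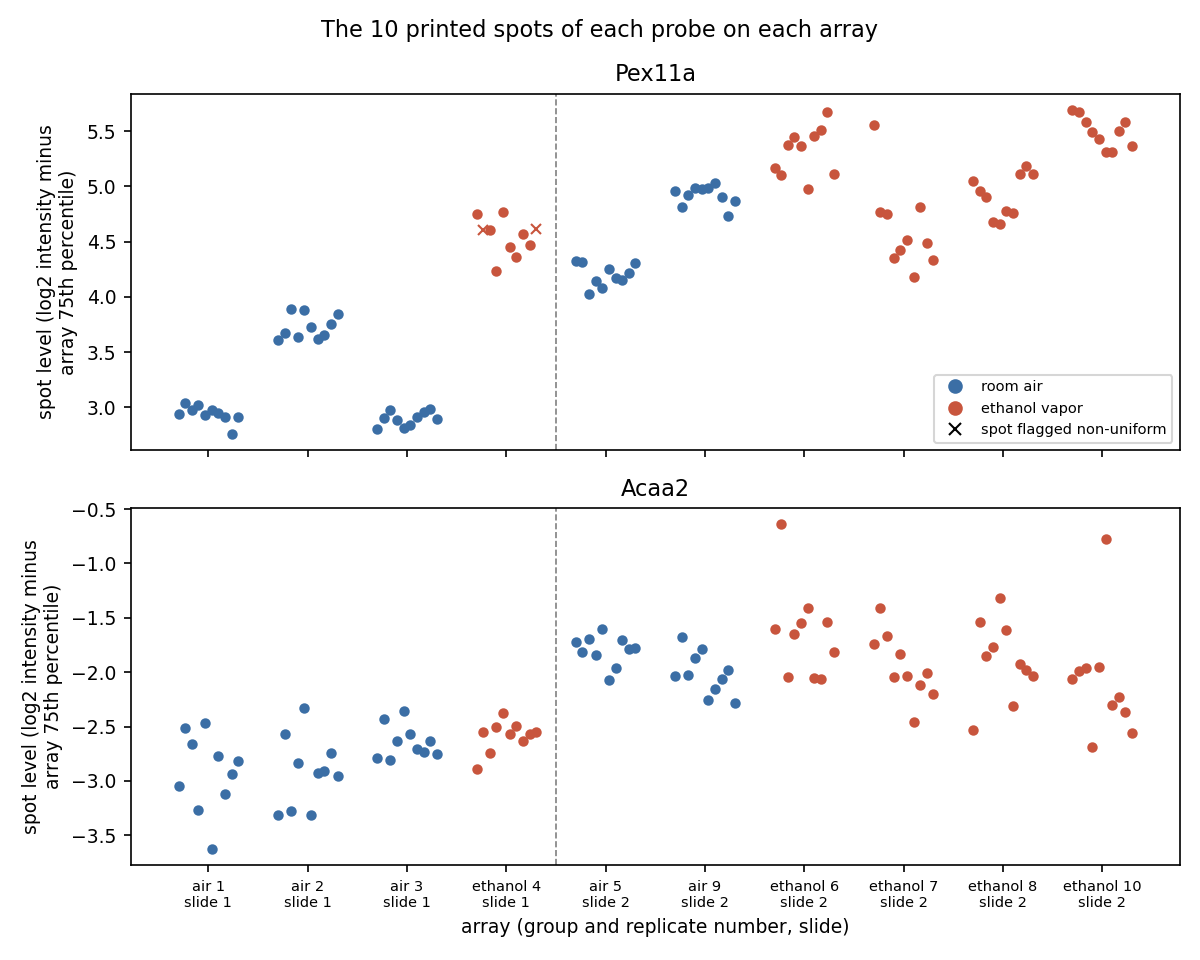
Levels of the 10 printed spots of the Pex11a and Acaa2 probes (log2 intensity minus the 75th percentile of the array) on each array, ordered by slide and group, with crosses for spots marked as non-uniform. The Pex11a spots lie close together on room air arrays (SD 0.0656 to 0.108) and spread further on ethanol arrays (SD 0.14 to 0.39, or 0.14 to 0.221 without the spots marked as population outliers).

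The rest of both pathways was thinly represented. Of 69 genes listed for peroxisomes and fatty acid oxidation, 4 had a named probe, Pex11a, Acaa2, Cpt1a and Ppara. Pex11a and Acaa2 were the 2 bright enough to be tested, and neither was called between the groups (0% of all probes were). Cpt1a encodes the enzyme that admits long-chain fatty acids to mitochondrial oxidation. Its probe passed the background limit on 3 of 5 arrays in room air (25 of 50 spots) and on 0 of 5 in ethanol (10 of 50 spots). Cpt1a levels ran from -4.55 to -2.82 in room air (mean -3.63) and from -4.72 to -3.01 in ethanol arrays (mean -3.64). These means take in part of the slide difference. On slide 1 the Cpt1a mean was -4.06 in room air and -4.72 in the 1 ethanol array. On slide 2 it was -2.99 in room air (17 of 20 spots above background) and -3.37 in ethanol arrays (9 of 40 spots). The groups overlapped and most readings were dim. Ppara encodes the receptor PPAR alpha. Its probe passed the background limit on 1 of 5 arrays in room air (8 of 50 spots) and on 0 of 5 in ethanol (2 of 50 spots). No fold is given for Cpt1a or Ppara.

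Beside the slide difference that both members had, their levels were compared within a slide. Within the 6 arrays of slide 2 the Pex11a and Acaa2 levels had a Pearson r of -0.16 (exact permutation p = 0.756) and a Spearman rho of -0.26 (exact permutation p = 0.658). Without the 2 arrays farthest from the Pex11a median, r was 0.83, and over other scalings and spot rules it ran from -0.74 to 0.23, so no direction is read from it. After subtraction of each slide's mean, the 3 named genes most like Pex11a over the 10 arrays were Prdx2 (r 0.85), a peroxiredoxin that reduces hydrogen peroxide, Anxa8 (r 0.82), an annexin, and Taf1a (r 0.72), a subunit of the RNA polymerase I initiation factor. Of all tested probes, 2.68%, 3.66% and 7.37% had an r with Pex11a at least as high. Most like Acaa2 were Alkbh4 (r 0.55), a demethylase, Mzb1 (r 0.24), a chaperone of antibody-secreting cells, and E2f1 (r 0.18), a cell cycle transcription factor. For Acaa2, 1.99%, 15.8% and 20.8% of tested probes had an r at least as high. Group means were not subtracted, so a difference between ethanol and room air enters each r. These values describe likeness among 34 other named genes on arrays that share their scaling, and carry no test.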

How the data were processed

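The 10 single-colour arrays were read by Feature Extraction 11.0.1.1 of Agilent, per the file headers. The processed intensity that the authors deposited had its background subtracted and was detrended within each array, with no scaling across arrays. The flags for saturation, background and non-uniform spots come from the same software. The authors' deposited value table is on a log2 scale and holds neither member. Control spots and those the scanner software marked non-uniform were dropped, log2 processed intensities were reduced by each array's 75th percentile, and spots were averaged. Spots marked as population outliers were kept, and leaving them out was an alternative. Probes well above background (at least 0.5 of spots) on at least 5 of 10 arrays were tested, 49363 of 60823. On slide 1 alone and for the interaction, 49262 probes had the values needed. Symbols came from a RefSeq table of GRCm38.p6, which matched 46 of 50 accessions.

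Groups came from the sample titles and slides from the scan identifier in the headers. Models were fitted in R 4.3.3 by the lmFit and eBayes functions of limma 3.58.1, with two-sided p-values adjusted by Benjamini-Hochberg across every tested probe. The limma fits were also run on simulated data with independent noise and planted changes larger than the ethanol differences of the members. A pass limit was set for the blocked fit only. Correlations (scipy 1.17.1) had two-sided exact permutation tests with every order enumerated in Python 3.11.15. Intervals cover the spread between arrays, whose number limits the precision. The members, lists and tests were chosen with earlier results of these data known. The rule for named genes took the members, the pathway genes with a named probe and the 3 named genes most like each member. Marker genes with a named probe are given too, and Hyal3, Olfr1307, Lhx1 and H2-M2 were named after their values were seen.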

Additional observations from a re-analysis of the deposited data

How the results depend on the processing

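No probe passed the adjusted threshold between the groups under any alternative run (limma), the authors' value table included. That table holds neither member. The Pex11a ethanol difference stayed above 0 in all the other alternatives. It moved by more than the SD between arrays on slide 2 alone, and in the blocked fit without ethanol replicate 4, to 0.53 in both. Both are the same estimate from slide 2, since replicate 4 was the only ethanol array of slide 1. Acaa2 moved to -0.13 with quantile normalization and to -0.046 with normexp on the spot median signal and quantile normalization. The same settings raised the excess of the Pex11a over the Acaa2 difference to 1.57 and 1.45. With the block, quantile normalization gave an excess of 0.84. Between slides, the Pex11a call was lost with median scaling (0.15). The Acaa2 slide difference turned to -0.065 with median scaling, to -0.31 with quantile normalization and to -0.15 with normexp. The correlation of the members on slide 2 turned to 0.23 with the percentile taken over probes detected on every array. The interaction of ethanol and slide, with 0 probes called as reported, had 6 calls with median scaling, 13 with normexp and 45 with the median of all printed spots. The causes were not tested.

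With 1 array left out the slide difference ran from 0.78 to 1.37 for Pex11a and from 0.75 to 0.92 for Acaa2, both still called. The difference in Pex11a spot SD ran from 0.0955 to 0.158. The planned normexp on the mean spot signal was not run, since the files used here have no such column, and the spot median was used, chosen after seeing the data. So were the blocks combined with other scalings or with an array left out, the spot rule without population outliers and the alternatives of the correlation, interaction and spot SD. No paired analysis was possible because the groups share no replicate number. The low signal of Acaa2, Cpt1a and Ppara over background limits what can be said of them.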

Other observations

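Each slide's mean was subtracted, and the 34 other named and tested genes were compared with Pex11a over the 10 arrays. The olfactory receptor gene Olfr1307 ran most clearly against Pex11a, with an r of -0.92, and 99.8% of tested probes had a higher or equal r. The homeobox gene Lhx1 had an r of -0.75, with 95.2% of probes at least as high. It did not stand apart, since H2-M2 came next at -0.73 (94.6%). These genes were chosen after their values were seen, and the correlations are descriptions on arrays that share their scaling. Group means were left in, so a difference between ethanol and room air enters these r values too.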
